A study of Mus musculus with 4 samples.

Results

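The Schlafen genes of the mouse were measured in activated helper T cells of mice without a functional leptin receptor and of their controls. Members were the 7 genes Slfn1, Slfn2, Slfn3, Slfn4, Slfn5, Slfn8 and Slfn9, taken by gene symbol from the platform annotation. No measured value entered that rule, but the family was chosen with earlier results of these data known. They had 9 features among the 33709 features of the array that carry a gene, out of 45220 in all. Slfn3 and Slfn5 had 2 features each and the others 1.

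T lymphocytes with the phenotype CD4+CD25- from spleens of the C57BL/6 strain were stimulated through CD3 and CD28 with antibodies for 12 h, and 1 array was hybridised per pool of 3 mice. Mice of the db/db group have the db mutation on both copies of Lepr, which encodes the leptin receptor, and the db/+ group carries 1 mutant and 1 functional copy and is labelled wild type. The labels call the db/db phenotype leptin-deficient, while the series title names the receptor. Each group held 2 pools, both groups were stimulated alike, unstimulated cells are not analysed here, and the labels used here give neither age nor sex. The mutation is in every cell of a db/db animal, which also becomes obese and diabetic, so the cells differed in their host as well as in their own receptor. With pooled RNA, fewer cells of a type and less RNA per cell cannot be told apart.

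Schlafen proteins take their name from the German word for sleeping, since the first members were found as growth regulators of developing and resting T cells. In the mouse the short proteins Slfn1 and Slfn2 form group I, the intermediate Slfn3 and Slfn4 group II, and the long Slfn5, Slfn8 and Slfn9, which add a helicase-like region, group III. Mice with a mutant Slfn2 lose T cells that cannot stay quiescent and die when activated, and many Schlafen genes are also induced by type I interferon. In the RefSeq assembly GRCm38.p6 the members lie in a single cluster on chromosome 11, together with Slfn10-ps and Slfn14. The order there is Slfn5, Slfn9, Slfn8, Slfn10-ps, Slfn2, Slfn1, Slfn4, Slfn3 and Slfn14.

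In db/db cells the brighter feature of Slfn5 was higher by a factor of 3.62 and past the threshold in both fits described next. The dimmer feature of Slfn5 passed neither. The brighter feature of the group II gene Slfn3 was higher by a factor of 1.76 and past the threshold in 1 of those fits. Slfn2, the member best known for T cell quiescence, showed no call in either direction. Slfn4, Slfn8 and Slfn9 had higher means in db/db but passed the threshold in neither fit. Slfn1 could not be judged, because its only feature lay in a stretch of the array that was misread in a db/db pool.

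Levels are log2 intensities after background correction and quantile normalization, and a difference is the db/db mean minus the db/+ mean on that scale. The 2 adjusted p-values given for a feature are from limma over all 33709 gene features and from limma over the 25467 features outside misread stretches, with a threshold of 0.05 in both. A level below 7.55, the median over gene features, is called background here, since the tables mark no control spots. Over all gene features 336, or 0.997%, passed: 195, or 0.578%, were called higher and 141, or 0.418%, lower in db/db. With misread stretches left out 2089, or 8.20%, passed: 1705, or 6.69%, were called higher and 384, or 1.51%, lower. The split of calls depended on the scaling, with 58.0% of all calls higher here, 31.8% after median scaling and 38.9% after cyclic loess. With misread stretches left out the share of higher calls was 81.6%, against 65.9% after median scaling, 67.5% after cyclic loess and 57.1% when the arrays were normalized again without the stretches. With 2 pools per group an exact permutation test of a single value cannot go below p = 0.333.

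The pools differed in the transcripts of other cells and of sex. Xist, which silences an X chromosome in female cells, read 14.33 and 13.88 in the db/+ pools and 10.06 and 6.60 in the db/db pools, with pool 1 first here and below. Eif2s3y, encoded on the Y chromosome, read 5.97 and 6.68 in db/+ and 13.95 and 13.77 in db/db. These transcripts, looked up because earlier results of these data named them, separated the groups completely, so sex of the donor mice and genotype cannot be told apart in any result below.

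**Figure D1:**
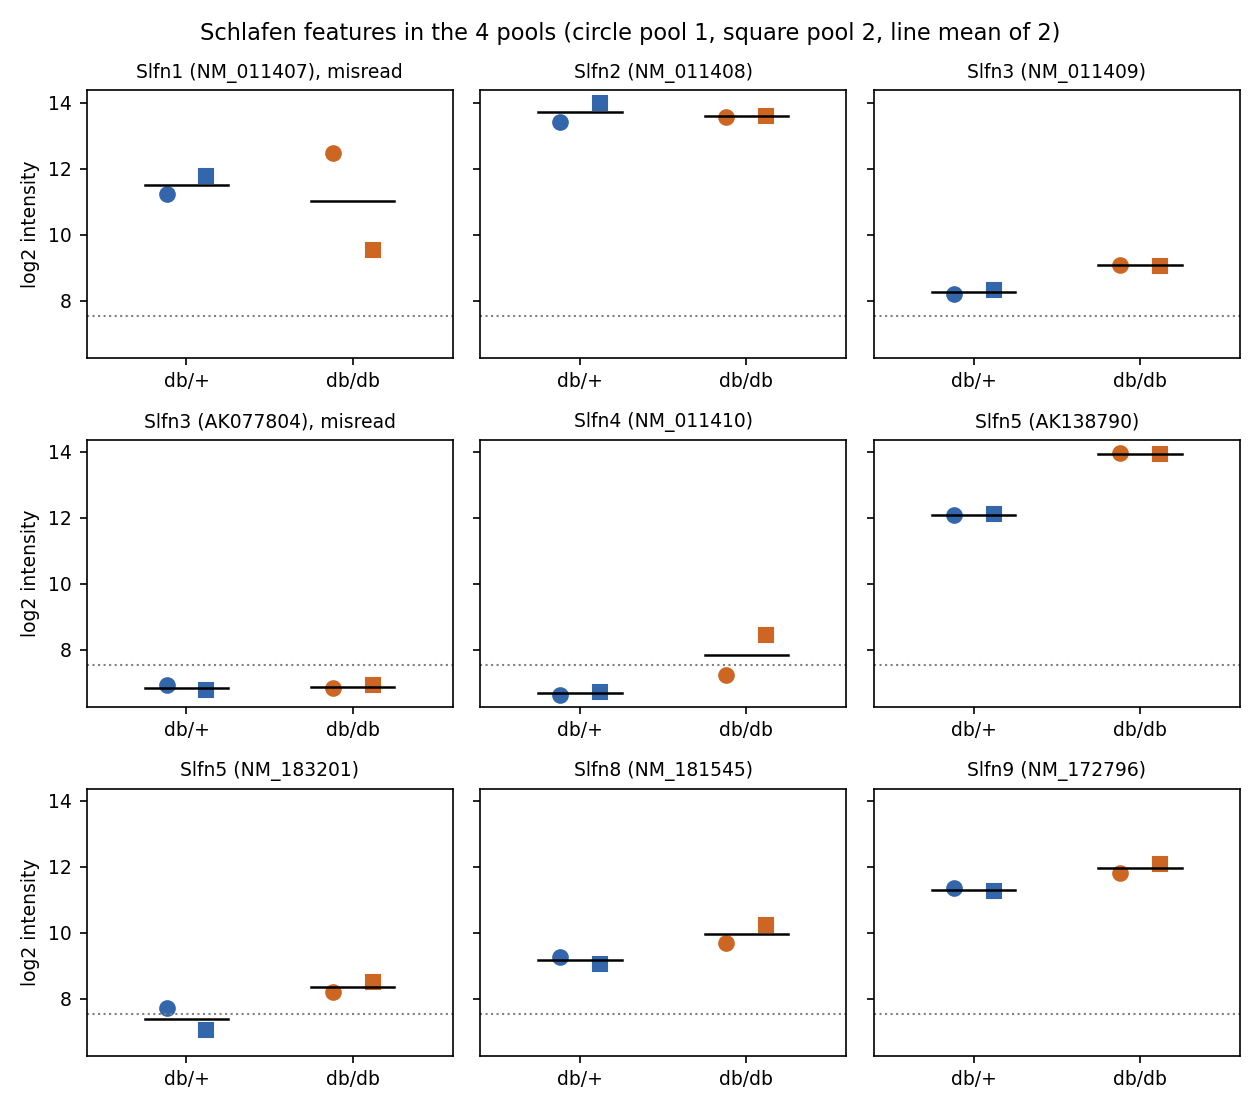
Normalized log2 intensity (vertical axis) of each Schlafen feature in the 2 db/+ pools (blue) and the 2 db/db pools (orange); circles are pool 1, squares pool 2, black lines group means and the dotted line the background level of 7.55. The db/db pools of Slfn5 (AK138790) sit at 13.96 and 13.92 above db/+ pools at 12.07 and 12.10, the pools of Slfn2 overlap, and the db/db pools of Slfn1, on a misread line, lie on either side of the db/+ pools.

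Among the group III genes, Slfn5 was called higher in db/db in both fits. Human and mouse Slfn5 are interferon-inducible and the human protein has been described as a regulator of transcription and cell growth. Its brighter feature, AK138790, read 12.07 and 12.10 in db/+ and 13.96 and 13.92 in db/db. Both db/db pools lay well above both db/+ pools, and the pools of a group differed by far less than the groups did. The group means were 12.09 ± 0.02 and 13.94 ± 0.03 (SD, n = 2 pools), a difference of 1.86 with a 95% limma interval of 1.61 to 2.10, or 3.62-fold (limma adjusted p = 0.0324 and 0.0124). It ranked 76 of 33709 features by p. The raw intensities before any normalization were 6420 and 4300 in db/+ and 10361 and 18919 in db/db, on arrays with medians of 254, 151, 102 and 176. No spot among the 40 nearest on its scan line was off on any array.

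The call of Slfn5 needed all 4 pools. Leaving out any 1 pool kept the difference between 1.83 and 1.88, but the limma adjusted p rose to between 0.0787 and 0.189 over all features, and no feature of any gene was called then. In the mean over its 2 features the difference was 1.41 (limma adjusted p = 0.0588).

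The second feature of Slfn5, NM_183201, was dim. It read 7.72 and 7.05 in db/+ and 8.20 and 8.49 in db/db, so 1 db/+ pool was below the background level. The db/db pools were again above the db/+ pools, without overlap. The difference was 0.96 with an interval of 0.10 to 1.82 (limma adjusted p = 0.222 and 0.107), so it passed the threshold in neither fit. Slfn5os, an antisense RNA that overlaps the gene, had 1 feature, which was at background in all 4 pools (6.76, 6.50, 6.64 and 6.67, in the same order).

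Slfn8 and Slfn9 are neighbouring long members of similar sequence, and whether their features share target RNA was not tested because the probe sequences are not used here. Slfn9 read 11.36 and 11.26 in db/+ and 11.82 and 12.09 in db/db. The pools did not overlap, and the difference was 0.64 (interval 0.24 to 1.05; limma adjusted p = 0.135 and 0.0600). Slfn8 read 9.28 and 9.06 in db/+ and 9.68 and 10.24 in db/db. Its pools did not overlap either, and the difference was 0.79 (interval 0.07 to 1.50; limma adjusted p = 0.226 and 0.112). In both genes db/db pool 2 was the highest of the 4 pools. After cyclic loess the differences were 0.44 for Slfn9 and 0.58 for Slfn8, and they were 0.40 and 0.50 when the arrays were normalized again without the misread stretches.

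The promoters of the group III genes are shown beside that of Slfn2 because all 3 hold the core of the interferon-stimulated response element and Slfn2 does not. The windows run from 250 bases before to 50 bases after the RefSeq gene start (GRCm38.p6), are written 5′ to 3′ on the strand of the gene, and have in capitals the matches to GAAA, any 2 bases and GAAA, searched on both strands.
Slfn5 promoter (chr11:82951852-82952151, plus strand): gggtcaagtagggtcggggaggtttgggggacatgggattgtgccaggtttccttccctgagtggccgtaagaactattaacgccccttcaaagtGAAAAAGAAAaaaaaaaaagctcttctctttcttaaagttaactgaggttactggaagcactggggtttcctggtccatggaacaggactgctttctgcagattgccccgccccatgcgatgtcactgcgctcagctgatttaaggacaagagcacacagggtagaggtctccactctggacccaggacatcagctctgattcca
Slfn9 promoter (chr11:82991781-82992080, minus strand): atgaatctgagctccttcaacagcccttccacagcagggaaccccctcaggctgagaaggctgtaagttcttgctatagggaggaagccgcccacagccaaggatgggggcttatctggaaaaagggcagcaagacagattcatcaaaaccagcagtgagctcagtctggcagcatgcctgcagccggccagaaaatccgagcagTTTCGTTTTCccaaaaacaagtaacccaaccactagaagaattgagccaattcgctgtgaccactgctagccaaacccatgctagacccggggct
Slfn8 promoter (chr11:83020761-83021060, minus strand): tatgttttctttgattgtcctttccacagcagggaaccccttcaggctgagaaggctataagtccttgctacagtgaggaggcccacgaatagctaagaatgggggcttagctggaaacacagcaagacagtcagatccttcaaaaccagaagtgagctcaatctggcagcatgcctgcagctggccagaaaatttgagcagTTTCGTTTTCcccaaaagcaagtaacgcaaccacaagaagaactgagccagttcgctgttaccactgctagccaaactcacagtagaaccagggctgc
Slfn2 promoter (chr11:83064862-83065161, plus strand): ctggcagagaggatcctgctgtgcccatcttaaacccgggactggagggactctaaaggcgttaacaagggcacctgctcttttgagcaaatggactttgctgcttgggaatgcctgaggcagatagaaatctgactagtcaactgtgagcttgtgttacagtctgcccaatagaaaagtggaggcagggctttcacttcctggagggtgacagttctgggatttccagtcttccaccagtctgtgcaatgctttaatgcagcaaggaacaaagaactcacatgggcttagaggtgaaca

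The match in Slfn5 is GAAAAAGAAA on the strand of the gene, 155 bases before the start and beside a run of A. Slfn9 and Slfn8 both have TTTCGTTTTC, the motif on the opposite strand, beginning 45 and 48 bases before the start. These windows of Slfn9 and Slfn8 were 80.5% identical in a global alignment, so their matches are not independent. Slfn8 has a second listed start whose window holds the same match. No match was found in the windows of Slfn1, Slfn2, Slfn3 and Slfn4. Of all 32851 promoter windows 3.44% held the motif, and 15 of 28 windows of the interferon-induced genes listed below did. The core of the interferon gamma-activated site, TTC, any 3 bases and GAA on both strands, was in none of the Schlafen windows and in 8.30% of all windows.

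In group II, Slfn3 was read by 2 features. Slfn3 has been studied in T cells and in the gut epithelium. Feature NM_011409 read 8.19 and 8.34 in db/+ and 9.09 and 9.07 in db/db. Both db/db pools were above both db/+ pools, and all 4 values were above background but dim. The means were 8.27 ± 0.10 and 9.08 ± 0.02 (SD, n = 2), a difference of 0.82 with an interval of 0.52 to 1.11, or 1.76-fold (limma adjusted p = 0.0730 and 0.0276). It rose by the second fit only, and with misread stretches left out the call was lost after median scaling (difference 0.66, limma adjusted p = 0.158) and without any 1 pool (differences of 0.74 to 0.89, limma adjusted p = 0.0682 to 0.190). The other feature, AK077804, lay at background in all 4 pools and on a line misread in db/+ pool 1, so it decides nothing.

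Slfn4 is known from macrophages and other myeloid cells, in which interferon and bacterial products induce it. It read 6.65 and 6.72 in db/+, both at background, and 7.23 and 8.43 in db/db, where pool 1 was at background as well. The pools did not overlap, but the db/db pools differed from each other more than db/db pool 1 differed from db/+. The difference was 1.15 with an interval of -0.23 to 2.52 (limma adjusted p = 0.321 and 0.181). The db/db mean was 1.21-fold above the background level, but it includes pool 1, which was below that level. The difference was 0.54 without db/db pool 2 and 1.75 without db/db pool 1. With misread stretches left out and median scaling the limma adjusted p was 0.000812, and in the 20 other alternatives Slfn4 was not called. The fit that called it gave every member tested the same standard error, 0.281, against 0.412 for Slfn4 without median scaling. The wide spread between its db/db pools therefore did not enter that call.

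Group I holds the members first tied to T cell quiescence. Slfn2 read 13.40 and 14.00 in db/+ and 13.56 and 13.60 in db/db. The db/db pools lay between the db/+ pools. The difference was -0.12 with an interval of -0.83 to 0.59 (limma adjusted p = 0.827 and 0.806), so changes of up to 1.78-fold lower or 1.51-fold higher lie within the interval. The sign turned to 0.18 without db/+ pool 2, so no direction is given.

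Slfn1, which slows the growth of thymocytes when overexpressed, read 11.24 and 11.79 in db/+ and 12.48 and 9.55 in db/db. One db/db pool was above and the other below both db/+ pools. On the scan line that holds the feature, 21.8% of spots on the array of db/db pool 2 departed by more than 2 log2 units from what the other arrays showed at the median, against 0.752% on each of the other 3. Of the 40 nearest spots 9 were off on that array and none on the others, and Slfn1 itself was off there. The difference over all pools was -0.50 (interval -3.84 to 2.84; limma adjusted p = 0.846), and without db/db pool 2 it was 0.96 (limma adjusted p = 0.363). The level of Slfn1 in db/db therefore rests on 1 readable pool and has no replicate.

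**Figure D2:**
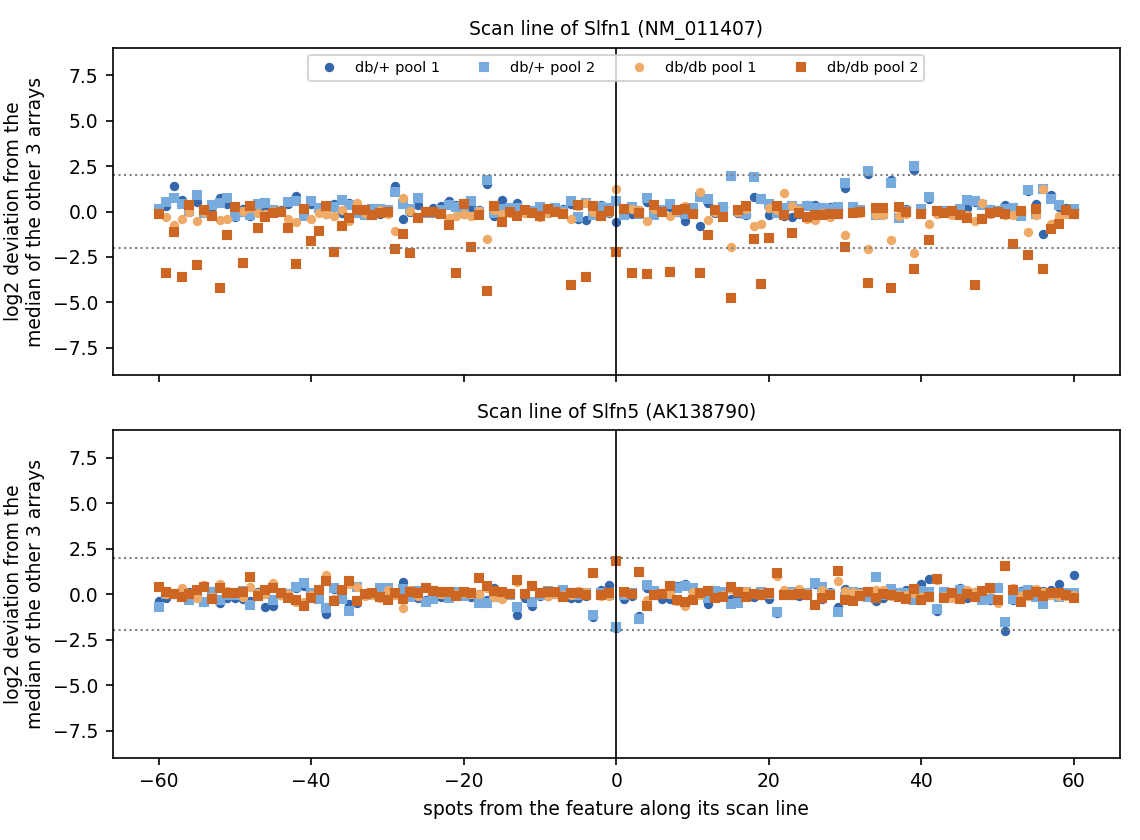
Deviation of each spot from the median of the other 3 arrays (log2, vertical axis) against its distance in spots from the Slfn1 feature (upper panel) and the brighter Slfn5 feature (lower panel) along the scan line, with 1 colour per pool and dotted lines at 2 log2 units. Around Slfn1 9 of the 40 nearest spots of db/db pool 2 are off, while around Slfn5 none is on any array.

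Counted over the family, 1 of 9 features was called over all gene features, the brighter one of Slfn5, against 0.578% of all features called higher. With misread stretches left out 2 of 7 were called, Slfn5 and Slfn3, both higher, against 6.69%. Both db/db pools were above both db/+ pools in 6 of the 9 features, against 31.2% of all features, or in 6 of the 7 outside misread stretches, against 35.1% there. In none of the 9 were both below, against 21.9% of all features. An unadjusted p below 0.05 was seen in 5 of 9, against 19.5%. The median difference was 0.82 over the 7 features and 0.04 over the 25467. The features were read on the same 4 arrays, so they are not replicates of the condition. Of the genes outside the member list, Slfn14 and Slfnl1 were at background in both group means, with differences of -0.08 and 0.05.

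**Figure D3:**
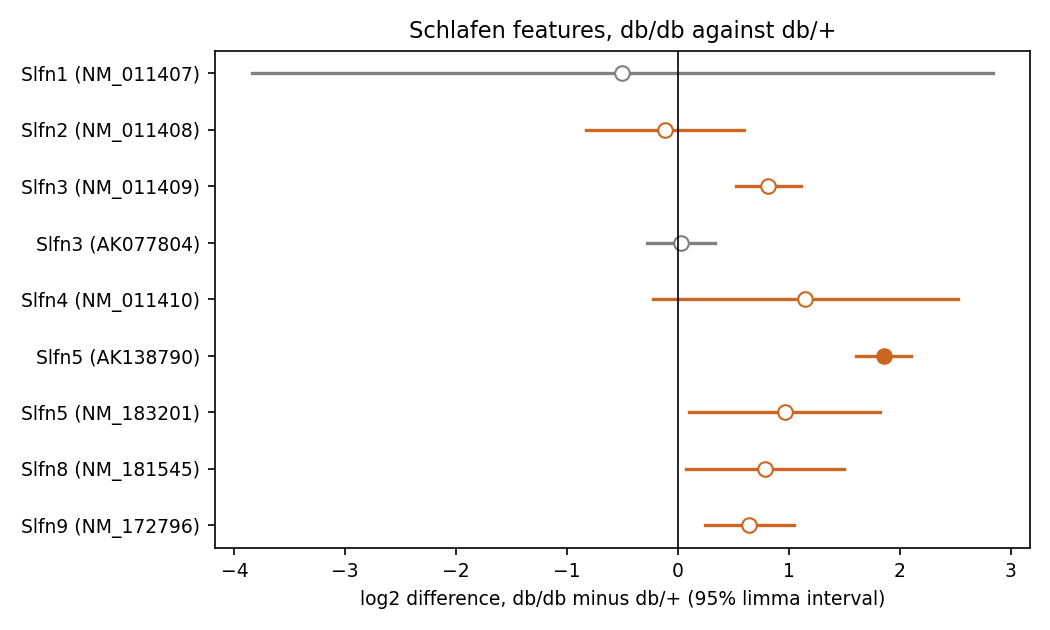
Difference in log2 intensity, db/db minus db/+ (horizontal axis), of the 9 Schlafen features with 95% limma intervals over all gene features; filled means limma adjusted p below 0.05 and grey a misread stretch. Only the interval of Slfn5 (AK138790), 1.61 to 2.10, belongs to a called feature, and those of Slfn1, Slfn2, Slfn4 and AK077804 of Slfn3 include 0.

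Genes of the interferon receptor, its signalling and its feedback were described from a list of 11, of which 10 were measured and 7 had a feature outside misread stretches. Of these 3 were called higher and none lower with the stretches left out (7.49% of all genes higher, 1.57% lower), and 2 of 10 over all features (0.629% of all genes higher). Stat2, part of the factor that binds the response element, rose from 11.09 ± 0.05 to 12.79 ± 0.05 (SD, n = 2), or 3.26-fold (limma adjusted p = 0.0377 and 0.0133). Usp18, the feedback protease of the pathway, rose 4.02-fold (limma adjusted p = 0.0324 and 0.0124). Jak1, a kinase of both the type I and the type II interferon receptor, was called in the second fit only, with a difference of 1.04. Irf9 and Irf7, the DNA-binding partner of STAT2 and an amplifier of the response, differed by 0.92 and 0.72 without passing either fit (limma adjusted p = 0.231 and 0.114 for Irf9, 0.189 and 0.0889 for Irf7). The receptor gene Ifnar2 differed by 0.55 (limma adjusted p = 0.130 and 0.0621), and the only feature of Ifnar1 was misread. Both db/db pools were above both db/+ pools in 7 of the 10 genes and below in 2, Irf1 and Tyk2. Irf1 differed by -0.32 and passed neither fit (limma adjusted p = 0.336 and 0.232), and Tyk2, with a difference of -1.38, was misread.

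Of 30 measured interferon-induced genes 5 were called higher over all features, and 17 of the 24 outside misread stretches were called higher and none lower in the second fit, against 0.629% and 7.49% of all genes called higher. Their median difference was 1.27, against 0.82 for the Schlafen features and 0.05 for all genes outside the stretches. Mx2, an antiviral GTPase, rose from 9.07 ± 0.05 to 10.56 ± 0.02 (SD, n = 2; limma adjusted p = 0.0402 and 0.0139). Ifit1, an RNA-binding antiviral protein, read 11.04 and 10.90 in db/+ and 12.74 and 11.80 in db/db, and passed neither fit (limma adjusted p = 0.203 and 0.0916). Isg15, a ubiquitin-like modifier, had its only feature in a misread stretch. Both db/db pools were above both db/+ pools in 27 of the 30 genes and below in 1, Gbp2. The difference of Gbp2 was -0.41, and it passed neither fit (limma adjusted p = 0.429 and 0.304).

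Of 24 measured genes of T cell quiescence none was called over all features, where 0.629% of all genes were called higher. In the second fit 8 were called higher and Foxp1 lower, against 7.49% and 1.57% of all genes. Il7r, the receptor subunit that carries survival signals in resting T cells, read 11.32 and 10.90 in db/+ and 12.68 and 12.36 in db/db (difference 1.41, limma adjusted p = 0.0921 and 0.0306), on 1 of its 3 features in the second fit. Cdkn1b, an inhibitor of cyclin-dependent kinases, differed by 0.88 on its brightest feature (limma adjusted p = 0.0772 and 0.0283), and that was the only one of its 12 features called. Klf2, which maintains quiescence and homing, differed by 0.32 (limma adjusted p = 0.255 and 0.169), Foxo1, which drives Klf2, by 0.66 (0.447 and 0.313) and Tob1, an antiproliferative factor, by 0.45 (0.117 and 0.0626). The median of the list was 0.54.

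Of 22 measured genes of cell division 3 were called higher over all features (0.629% of all genes). Of the 19 outside misread stretches 13 were called higher in the second fit (7.49% of all genes) and none lower. Among those not called, the replication helicase genes Mcm3 and Mcm4 differed by 0.46 and 0.08, with Mcm4 at background in both groups, while Mcm6 and Birc5 lay in misread stretches. Cdk1, the kinase of mitotic entry, rose from 8.91 ± 0.04 to 10.75 ± 0.16 (SD, n = 2; limma adjusted p = 0.0422 and 0.0142), on 1 of its 2 features in the second fit. Mki67, a marker of cycling cells, differed by 1.30 on its brightest feature (limma adjusted p = 0.184 and 0.0791), which passed neither fit, and 1 of its 2 features was called higher in the second. Quiescence genes and cell division genes thus both had positive medians in these pools, 0.54 and 1.30 outside misread stretches.

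**Figure D4:**
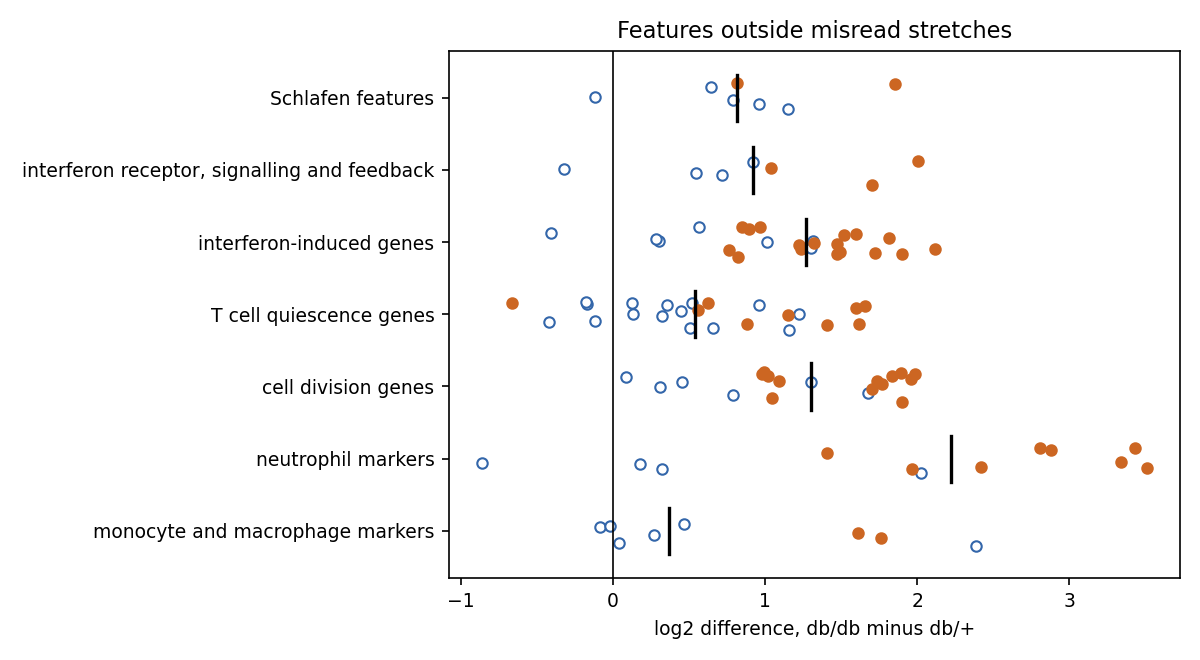
Difference in log2 intensity, db/db minus db/+ (horizontal axis), of features outside misread stretches: each Schlafen feature, and 1 feature per gene of 6 lists. Orange points passed limma adjusted p below 0.05 with misread stretches left out, open points did not, and black bars are medians, which run from 0.37 for the monocyte and macrophage markers to 2.22 for the neutrophil markers, with 0.82 for the Schlafen features.

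Slfn4 and other Schlafen genes are also expressed in myeloid cells, whose markers were read in the same pools. Of 14 neutrophil markers 5 were called higher over all features (0.629% of all genes), and 8 of 12 outside misread stretches in the second fit (7.49% of all genes). Mpo, a granule enzyme, differed by -0.86 and passed neither fit, and its largest value was in db/+ pool 2, while Elane, with a difference of -1.52, lay in a misread stretch. Cxcr2, at background in both groups, and Retnlg differed by 0.18 and 0.32 and passed neither fit. The summed linear intensity of the 14 came to 8330 and 22167 in db/+ and to 70047 and 74596 in db/db. S100a9 was the brightest of them and made up most of the db/db sums. It read 11.80 and 13.24 in db/+ and 15.36 and 15.44 in db/db (limma adjusted p = 0.119 and 0.0414). Ltf, a granule protein, read 8.27 and 8.26 in db/+ and 11.69 and 11.70 in db/db (limma adjusted p = 0.0290 and 0.0104). The 12 monocyte and macrophage markers summed to 6013 and 13396 in db/+ and to 31542 and 30081 in db/db. Most of the db/db sum came from Lyz2, whose brightest feature read 11.31 and 12.67 in db/+ and 14.42 and 14.34 in db/db. That feature passed neither fit (limma adjusted p = 0.141 and 0.0530), while 1 of the 2 Lyz2 features was called higher in the second. None of the 12 was called over all features, and 2 of 8 were called higher in the second fit. Their median difference was 0.37 outside misread stretches. Ccr2 and C1qc differed by 0.04 and -0.02, and Fcgr1, Mrc1, Marco, C1qa and C1qb were at background in both groups. The part of these cells in the Schlafen differences was not tested.

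The 10 B cell markers summed to 17410 and 28110 in db/+ and to 70063 and 70597 in db/db, with Pax5, Blk and Cr2 at background in both groups. The brightest of them was Ighm, the heavy chain of IgM, which read 13.01 and 13.91 in db/+ and 15.61 and 15.78 in db/db. The median B cell marker differed by 0.20, and 1 of 10 was called higher over all features and 3 of 10 in the second fit. Of all genes 0.629% were called higher over all features, and 7.49% higher and 1.57% lower in the second fit. The 8 markers of CD8 and NK cells summed to 34682 and 51735 in db/+ and to 69631 and 65763 in db/db, with none called over all features, 2 of 7 called higher in the second fit, Cd8a and Cd8b1, and a median of 0.42. The NK cell receptor genes Klrb1c and Ncr1 differed by -0.86 and -0.43 and passed neither fit. Cd8a, a marker of cells that the purification should remove, was 2.90-fold higher in db/db (limma adjusted p = 0.0751 and 0.0236, past the threshold in the second fit only). Of the labelled cell type 8 markers were measured, all above background. They summed to 104782 and 111169 in db/+ and to 100772 and 99554 in db/db, but the 6 outside misread stretches summed to 54604 and 64375 and to 73215 and 76057. The others were Cd2 and Cd5. The misread feature of Cd5 read 14.91 and 14.58 in db/+ and 11.14 and 10.73 in db/db. It was the only one of the 8 called over all features, lower in db/db (limma adjusted p = 0.0385). Of all features 0.418% were called lower in that fit. Of the 6, Zap70, a kinase of the T cell receptor, was called lower in the second fit (difference -0.55, limma adjusted p = 0.101 and 0.0476). The receptor subunits Cd3d and Cd3e differed by 0.88 and 1.03 and passed neither fit (limma adjusted p = 0.135 and 0.0554 for Cd3d, 0.196 and 0.0884 for Cd3e). Cd4 read 9.83 ± 0.22 and 9.97 ± 0.04 (SD, n = 2; limma adjusted p = 0.659 and 0.624). Of the dendritic cell markers 5 of 6 were at background in both groups, and the list summed to 2018 and 3348 in db/+ and to 1654 and 1583 in db/db. The 3 erythroid markers summed to 2088 and 5550 in db/+ and to 9642 and 9238 in db/db, and none was called in either fit. Most of that sum came from Hba-a1, with a difference of 1.64 (limma adjusted p = 0.228 and 0.107). The pools of Alas2 overlapped between the groups, with a difference of 0.63, and Klf1, with a difference of -1.17, was misread. The part of these cells in the Schlafen differences was not tested either.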

How the data were processed

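Cells of 4 pools, 2 db/+ and 2 db/db, were measured on 1 one-colour array each (12 h of stimulation, 3 mice per pool). Raw values are median foreground intensities, linear and not normalized, per the file headers. The log2 values in the authors' deposited value table equalled the quantile-normalized log2 raw values to within 5.00e-09. limma is the only tool in the submitters' processing notes; the scanner software is not given in the sources used here.

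Intensities were corrected by normexp (offset 50), log2 transformed and quantile normalized, and each feature was tested in R 4.3.3 with limma 3.58.1, two-sided, with Benjamini-Hochberg adjustment over all gene features. Array quality and the number of arrays limit the precision. The labels do not say that the pools come from the numbered experiments, so replicate numbers were not used as pairs. Deviations of same-numbered pools correlated at -0.05 across gene features.

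The tables name no genes. Features were placed on the array by a grid layout inferred earlier from these data, so each gene name rests on it. Symbols are those of the platform annotation, updated by gene ID; 33653 features had 1 symbol and 56 several. A spot was off on an array when it departed by more than 2 log2 units from the median of its values on the others. Scan lines with over 5% of spots off on an array, and runs of 15 spots with 3 or more off, were called misread. This took 40 of 170 lines and 8242 gene features, a rule set after seeing the data and not independent of the comparison.

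The members and lists were chosen with earlier results of these data known. All 7 members and a set of context genes were named, each by its brightest feature outside the misread stretches. Lists are described by counts and medians, without a set test. The fit and the misread rule were run on simulated data with independent noise. In the simulated misread stretches every spot was shifted, while on the line of Slfn1 21.8% of spots were off. The simulation therefore does not show how well the rule finds the misread stretches of these arrays. Promoters were read from the RefSeq table and aligned with Biopython 1.88.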

Additional observations from a re-analysis of the deposited data

How the results depend on the processing

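The number of called features (limma, adjusted p below 0.05) was 336 over all gene features, 149 after cyclic loess and 201 with dim features left out. It was 2089 with misread stretches left out. The alternatives chosen after seeing the data gave 1927 when normalized again without the stretches, 1922 with median scaling, 1697 with cyclic loess and 2173 when the stretches were taken only from differences within a genotype. With the replicate number as a block 0 features were called over all gene features (5146 at an unadjusted p below 0.05), and 445 with misread stretches left out. Leaving out 1 pool gave 0 calls in every case, with and without the stretches, while 4208 to 7565 features had an unadjusted p below 0.05. Of the Schlafen features 1 was called, 2 with misread stretches left out as well as when normalized again, with cyclic loess there or with stretches from within a genotype, 3 with median scaling there, and 0 with the replicate block or without any 1 pool (2 to 6 had an unadjusted p below 0.05). With misread stretches left out and median scaling, every member tested had the same standard error, 0.281, whatever the spread of its own pools. With the block and misread stretches left out 1 was called, Slfn5 (limma adjusted p = 0.0456), which had 0.240 with the block alone, while Slfn3 was not (limma adjusted p = 0.0674). Over the 4 pathway lists 10 genes were called, 42 with misread stretches left out, 0 with the replicate block and 17 with both. The lists held 10, 30, 24 and 22 measured genes, of which 7, 24, 24 and 19 were outside misread stretches. Beside the 10 and 42, the shares of all gene features called were 0.997% and 8.20%. Slfn5 was past the threshold in 11 of 21 alternatives, with differences of 1.41 to 1.88, and Slfn3 in 4 of 21. Quantile normalization without background correction and the authors' deposited values are the same data. Both count among the 21, and both among the 11 of Slfn5. Slfn3, Slfn4, Slfn8 and Slfn9 were positive in all 21, with differences down to 0.42, 0.54, 0.50 and 0.40. Slfn2 ran from -0.42 to 0.18 and turned positive without db/+ pool 2, and Slfn1 ran from -1.96 to 0.96 and turned positive without db/db pool 2. The causes were not tested. Signal over background limits Slfn4, NM_183201 of Slfn5 and AK077804 of Slfn3.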

Other observations

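For each member the genes with the most similar levels over the 4 pools were found by the Euclidean distance between mean-centred log2 values, among 9042 genes outside misread stretches whose mean was above background (7.55) in at least 1 group. With 4 points such likeness is common, and it is given as a description. Gad2, Fam161b, Septin1 and Irf7 had both db/+ values below background, so their likeness rests in part on values with no order. For Slfn5 the nearest were Gad2, Patj and Tnfrsf11a, at distances of 0.0900, 0.108 and 0.114, and 16 genes lay within 0.2. For Slfn3 they were Neil1, Fam161b and Fam117a, with 421 genes within 0.2, and for Slfn9 Plcb3, Fdft1 and Fryl, with 133. For Slfn8 they were Septin1, Cast and Irf7, with 18 genes within 0.2. None is named for Slfn4, which was itself at background in 3 of 4 pools. For Slfn2 they were 4930526I15Rik, Grb10 and Klrb1f, with 135. For Slfn1, whose feature was misread, no gene lay within 0.2, and the nearest were Srrm3, Klf3 and Nedd1.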
